A study of Mus musculus with 33 samples.

Results

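The transcripts of 3 beta subunits of the sodium-potassium ATPase, chosen by their symbols Atp1b1, Atp1b2 and Atp1b3, were followed across the cell types of the mouse hippocampal neurogenic niche. They are 3 of the 18854 genes in the count files, and all 3 had counts. The cells came from the hippocampus of wild-type C57BL/6 mice after the removal of neurons, and live cells that bound neither the GluR1 nor the Cd24 antibody were sorted singly into wells. Besides 31 libraries from 5 numbered niche experiments, there was 1 library from mice older than 12 months (the old library) and 1 of hippocampal cells positive for GFP from NestinGFP mice (the Nestin-GFP library), named after Nestin, a gene of neural progenitors. The labels give the genotype of the Nestin-GFP library as wild-type too. Ages are stated for no other group, nor is the number of mice pooled. The p-values below therefore take the numbered experiments as replicates, and the spread between these may be technical. In the edgeR tests, experiment was a block and the variance of each gene was estimated with help from all genes tested. A small edgeR p thus does not measure the spread of that gene alone between experiments. Cd24 is also carried by neuroblasts, so this gate may have removed some of them. Transcripts were read from their 3' ends with unique molecular identifiers (UMIs), so that a long and a short transcript each count once.

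The sodium-potassium ATPase moves sodium out of the cell and potassium into it at the cost of ATP. Its alpha subunit carries the ions, its beta subunit is needed to fold the pump and bring it to the cell surface, and small FXYD proteins tune its affinity for ions. Beta1, from Atp1b1, is the widespread form and is abundant in neurons. Beta2, from Atp1b2, was first described as the adhesion molecule on glia, AMOG, and belongs to the pump of astrocytes that takes part in the clearance of potassium. Beta3, from Atp1b3, is known from lymphocytes, where it is CD298, and from many other tissues.

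In the genome build GRCm38, Atp1b1 lies on chromosome 1 at 164437109 to 164458355, Atp1b2 on chromosome 11 at 69599736 to 69605942 and Atp1b3 on chromosome 9 at 96332655 to 96364442, all on the minus strand (GENCODE M21). The last 617 bases of Atp1b1 overlap the end of Nme7, a gene of the opposite strand. Whether the counting used the strand is not stated, so some Atp1b1 counts could be reads of Nme7 and the reverse. Nme7 itself averaged 88.4 ± 75.3 CPM (CPM being counts scaled to a common total; SD, n = 3) in stem cell-like cells, from 7 counts, where Atp1b1 averaged 121 ± 58.5 CPM, so the Atp1b1 level of that class is uncertain. In astrocyte-like cells Nme7 averaged 26.3 CPM, in progenitor and neuroblast-like cells 26.1 CPM and in oligodendrocyte precursor-like cells 3.18 CPM.

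The 250 bases before the start of Atp1b1 and of Atp1b3 are shown because these genes are the low and the high member in mature oligodendrocyte-like cells. They are from RefSeq (GRCm38.p6, minus strand, 5′ to 3′), which matched 2 of the 3 members, at chr1:164458356-164458605 and chr9:96364432-96364681. Capitals mark GC boxes, searched as GGGCGG on both strands, so that CCGCCC marks the other strand.
Atp1b1: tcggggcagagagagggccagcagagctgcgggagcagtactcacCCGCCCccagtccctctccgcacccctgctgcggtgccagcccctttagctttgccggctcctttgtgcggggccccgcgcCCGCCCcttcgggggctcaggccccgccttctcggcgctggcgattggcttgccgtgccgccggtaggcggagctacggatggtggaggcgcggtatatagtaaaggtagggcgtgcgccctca
Atp1b3: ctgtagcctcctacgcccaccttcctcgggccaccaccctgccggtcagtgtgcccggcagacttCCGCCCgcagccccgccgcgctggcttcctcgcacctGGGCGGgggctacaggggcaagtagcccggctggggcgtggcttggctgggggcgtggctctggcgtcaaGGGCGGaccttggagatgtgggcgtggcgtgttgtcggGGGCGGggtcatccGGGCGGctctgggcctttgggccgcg
The Atp1b1 window held 2 GC boxes and the Atp1b3 window 5, with a GC content of 70.4% and 73.6%. Of 32851 promoter windows of this length, 32.7% held at least 1 GC box, and 1.93% held 5 or more; the median GC content was 52.4%. A further RefSeq start of Atp1b3 had no GC box in its window.

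The niche experiments gave 1285 cells with at least 1000 transcripts from 3840 wells, with a median of 1943 to 12392 transcripts per cell by experiment; the old library gave 138 cells and the Nestin-GFP library 315. Well numbers recur between libraries by design, and no 2 cells of the 1738 had the same profile. Cells were clustered on a random division of their UMIs without the pump genes, named from marker lists and called "-like". The members were measured in the UMIs set aside, except in the shares of cells with a UMI, which used all UMIs. The classes hold their markers: the 12 astrocyte markers summed to 27562 to 45768 CPM in astrocyte-like cells, and the 10 mature oligodendrocyte markers to 83619 to 104656 CPM in mature oligodendrocyte-like cells. The astrocyte markers were also high in stem cell-like cells, at 21597 to 33276 CPM. The 14 stem cell markers summed to 4831 to 8112 CPM in stem cell-like cells, against 2253 to 3958 CPM in astrocyte-like cells. The leading genes of the stem cell-like cluster include the immediate early genes Fos and Jun, beside Fabp7, Sparc and Hopx. In experiment 3, 7 of the 26 wells of the oligodendrocyte precursor-like class held 30.9% to 72.5% haemoglobin UMIs (Hbb-bs and Hba-a1), against at most 0.356% in any other cell, so these wells go against the class name. They were kept in the main analysis, and member fold changes without them are given for the comparisons that use this class. The shares, the other genes, the ratios to markers, the order of levels and the correlations include these wells. The blood and lymphoid-like class is led by MHC class I and ribosomal genes. A class was used in an experiment where it had at least 5 cells, which left 3 experiments for stem cell-like, mature oligodendrocyte-like and blood and lymphoid-like cells and 5 for astrocyte-like, oligodendrocyte precursor-like, progenitor and neuroblast-like and microglia-like cells.

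In the niche experiments Atp1b2 was the main form in astrocyte-like, stem cell-like, progenitor and neuroblast-like and oligodendrocyte precursor-like cells, and Atp1b3 was the main form in mature oligodendrocyte-like cells, in microglia-like cells and in the blood and lymphoid-like class. Atp1b1 led in none of these classes. In progenitor and neuroblast-like cells outside the niche experiments, Atp1b3 made up 44.8% and Atp1b2 43.7% of 87 counts in the Nestin-GFP library, and 66.7% and 26.7% of 15 counts in the old library. As a share of the 3 transcripts, Atp1b2 made up 91.8% ± 3.61 in astrocyte-like cells (SD over experiments, n = 5) and 89.9% ± 5.35 in stem cell-like cells (n = 3). It made up 69.2% ± 3.78 in oligodendrocyte precursor-like cells and 67.2% ± 12.7 in progenitor and neuroblast-like cells (n = 5 each). Its share was 29.996% ± 9.34 in microglia-like cells (n = 5) and 5.47% ± 0.931 in mature oligodendrocyte-like cells (n = 3). Atp1b3 took most of the remainder there, with 68.04% ± 9.69 in microglia-like and 94.4% ± 0.959 in mature oligodendrocyte-like cells. In blood and lymphoid-like cells Atp1b3 made up 76.03% ± 10.5 (n = 3, from 20 to 53 counts of the 3 genes per experiment). The share of Atp1b1 was highest in oligodendrocyte precursor-like cells, at 13.7% ± 6.22, beside 12.3% ± 10.8 in blood and lymphoid-like cells; these differed by less than their SDs.

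**Figure D1:**
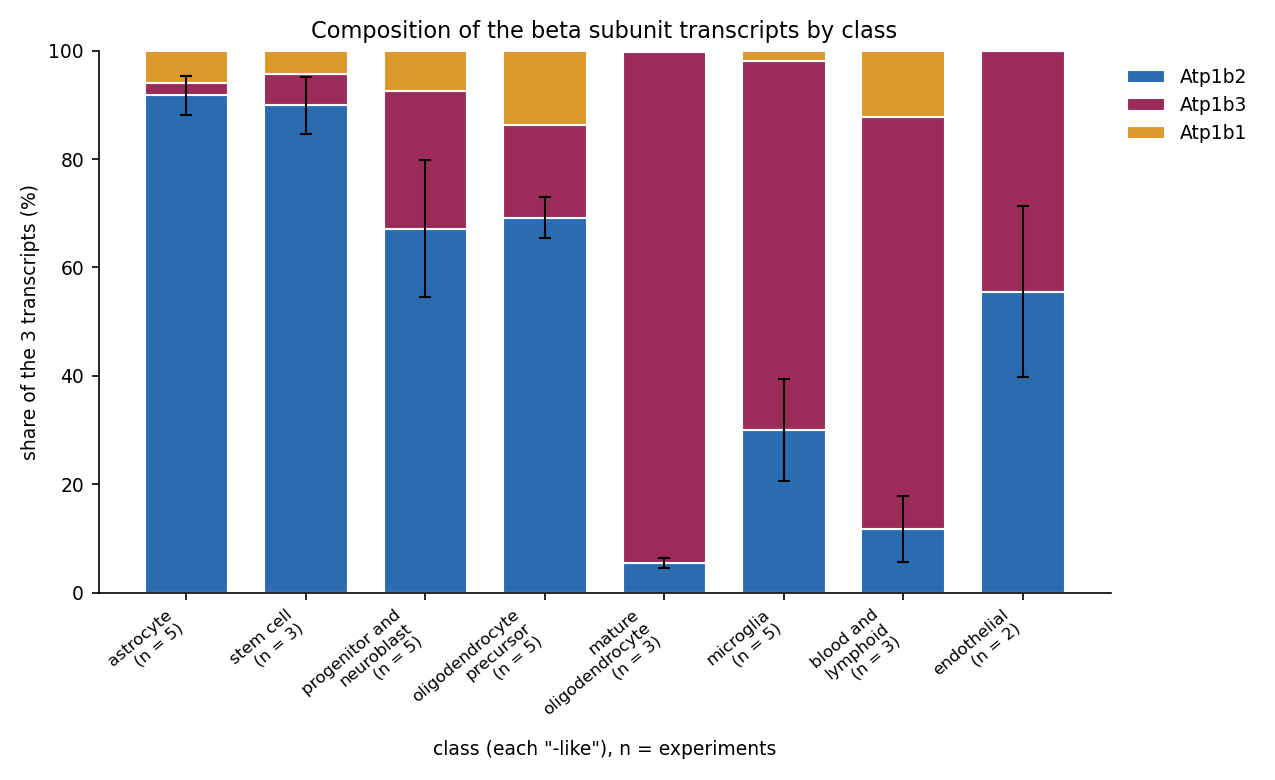
Share of Atp1b2, Atp1b3 and Atp1b1 in the summed counts of the 3 genes (y axis, percent) by class (x axis), as the mean over niche experiments; black bars are the SD of the Atp1b2 share. Atp1b2 fills 91.8% of the column of astrocyte-like cells and 5.47% of that of mature oligodendrocyte-like cells, where Atp1b3 fills 94.4%.

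The differences in share were tested over experiments with an exact sign-flip permutation test, two-sided, over 18 tests. With 5 experiments its smallest p is 0.0625 and with 3 it is 0.25, so it cannot pass 0.05. The Atp1b2 share was higher in astrocyte-like than in oligodendrocyte precursor-like cells by 22.6 points ± 1.37 (SD), in 5 of 5 experiments (exact permutation p = 0.0625, adjusted p = 0.161). It was higher than in progenitor and neuroblast-like cells by 24.6 ± 13.8 points and than in microglia-like cells by 61.8 ± 8.56 points, each in 5 of 5 experiments with the same p. The Atp1b2 share of stem cell-like cells minus that of astrocyte-like ones was -2.25 ± 5.46 points and was below 0 in 2 of 3 experiments (exact permutation p = 0.75); no difference in the mix of subunits was detected there. The Atp1b3 share was higher in mature oligodendrocyte-like than in oligodendrocyte precursor-like cells by 75.8 ± 1.85 points, in 3 of 3 experiments (exact permutation p = 0.25).

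Stem cell-like cells had less Atp1b2, the glial beta subunit, than astrocyte-like cells of the same experiment. Atp1b2 stood at 1793, 2166 and 3753 CPM in stem cell-like cells of experiments 2, 3 and 5, against 5568, 4242 and 6708 CPM in astrocyte-like cells. The highest stem cell-like value lies below the lowest astrocyte-like value, so the groups did not overlap. Here and below, a lack of overlap describes few values, and the share of all genes that separate likewise is not given. The log2 fold change was -1.19 ± 0.285 (SE; edgeR quasi-likelihood test, adjusted p = 0.000865), where 10.5% of 1298 genes tested were called, 3.62% as higher and 6.86% as lower (47 and 89 genes; 8 and 91 with no filter on low counts, 15 and 59 under a second random division of the UMIs, 1 and 13 with no replicate block). Of the members tested, 1 of 2 was called lower. The log2 fold change was -0.98 without experiment 2 (edgeR adjusted p = 0.192), -1.38 without experiment 5 (0.067) and -1.38 without experiment 3 (0.0415). Each of these fits had 2 experiments left, so a higher adjusted p does not show which experiment carried the difference. The edgeR adjusted p was 0.0942 without the experiment as replicate block. The median depth was 5862 UMIs per cell in the stem cell-like class, against 2096 in the astrocyte-like class, and the summed astrocyte markers stood at 21597 to 33276 CPM in the stem cell-like class (10 to 12 of the 12 with counts), against 27562 to 45768 CPM in the astrocyte-like class; the part of the depth gap and of these markers in the difference was not tested. The classes were made from other genes of the same cells.

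Atp1b1, the widespread beta subunit, stood at 131, 58.4 and 174 CPM in stem cell-like cells, against 258, 507 and 126.5 CPM in astrocyte-like cells of experiments 2, 3 and 5. The groups overlapped, and in experiment 5 the stem cell-like value, from 2 counts, was the higher one. Its log2 fold change of -1.43 ± 0.514 did not pass (edgeR adjusted p = 0.0507), and it passed with a minimum of 3 cells per class (adjusted p = 0.037) and with cells of at least 2000 transcripts (adjusted p = 0.0409). It passed in no other alternative, where the edgeR adjusted p reached 0.363 (no replicate block). Leaving out experiment 5 gave -1.77 (edgeR adjusted p = 0.128) and leaving out experiment 3 gave -0.70 (0.592). Atp1b3, the form known from lymphocytes, stood at 186, 205 and 0 CPM in stem cell-like cells, against 151, 145 and 111 CPM in astrocyte-like cells. It was too low for the test in the main analysis, and in the 4 alternatives that tested it the adjusted p was 0.821 to 0.995. Of 11491 counts in the 5 stem cell-like cells of experiment 5, none was Atp1b3, which allows up to 261 CPM.

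**Figure D2:**
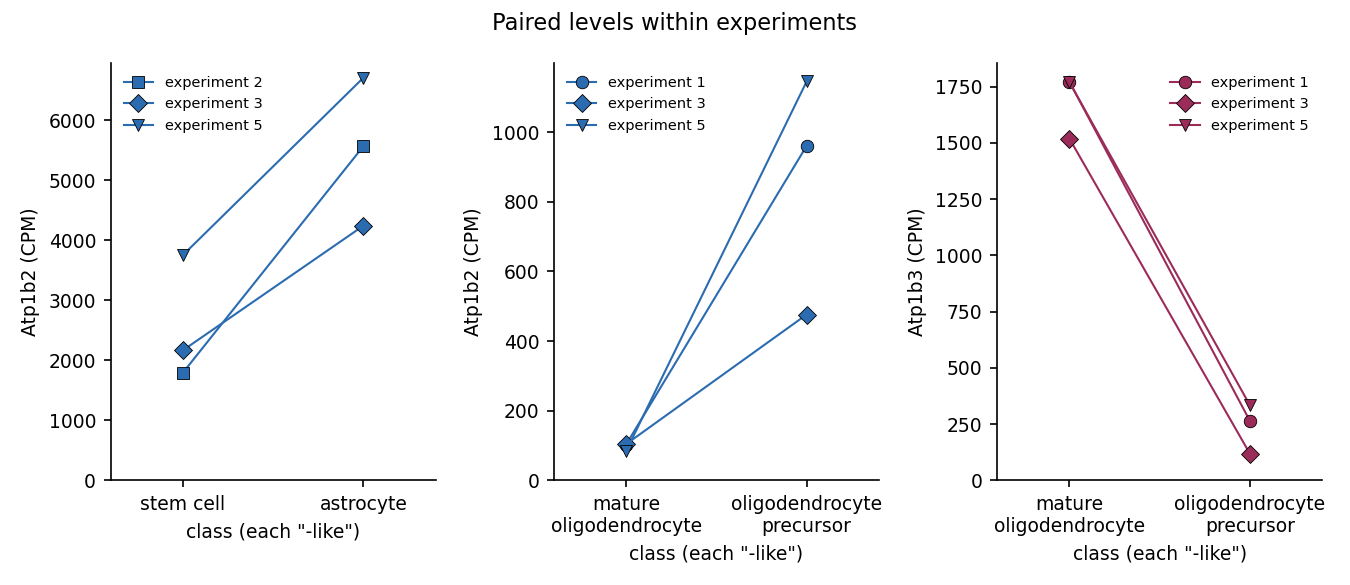
CPM (y axis) of Atp1b2 in stem cell-like and astrocyte-like cells, of Atp1b2 in mature oligodendrocyte-like and oligodendrocyte precursor-like cells, and of Atp1b3 in that last pair (x axes); each line joins the classes of 1 experiment. Stem cell-like cells lie between 1793 and 3753 CPM of Atp1b2, all below the astrocyte-like cells, and the Atp1b3 lines run the other way from the Atp1b2 lines in the oligodendrocyte lineage.

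Genes for ion transport fell with Atp1b2 in part. Of 20 genes for ion transport and for binding to the pump, 12 were tested and 5 fell, beside 6.86% of all genes called lower. The median log2 fold change of the 12 was -0.73, beside 0.00 over all genes tested. The list was chosen with earlier results of these data known. Because a gene could also pass the filter on low counts through its astrocyte-like level alone, this count is a description. Kcnk1, a potassium channel of astrocytes, had 0 counts in the stem cell-like class, against 113 in the astrocyte-like one; set against the limit of 3 counts over the group, it was lower with a ratio of at most 0.0424. Slc4a4, a sodium bicarbonate cotransporter, fell by 2.82 on the log2 scale and Slc38a3, a sodium-coupled glutamine transporter, by 2.65 (edgeR adjusted p = 2.48e-11 and 1.21e-07). The water channel Aqp4 and the connexin Gja1 fell too, but these 2 of the 5 are among the markers that named the astrocyte-like cells. Among the clusters of astrocyte-like cells, niche cells had 4023 to 7028 CPM of Atp1b2, against 2136 CPM in the stem cell-like cluster, as a description.

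Progenitor and neuroblast-like cells had less Atp1b2 than stem cell-like cells. It stood at 299, 253 and 496 CPM in progenitor and neuroblast-like cells of experiments 2, 3 and 5, against 1793, 2166 and 3753 CPM in stem cell-like cells. Every progenitor and neuroblast-like value lay below every stem cell-like value. The log2 fold change was -2.91 ± 0.348 (edgeR adjusted p = 2.91e-15), where 40.3% of 1306 genes were called, 20.1% in each direction, and the 1 member tested was called. Atp1b1 had 13 counts in progenitor and neuroblast-like cells, against 16 in the stem cell-like class, and Atp1b3 had 76, against 24. Neither passed the filter on low counts of the main analysis, where their pooled ratios were 0.207 (95% interval 0.0914 to 0.458, counting error only) and 0.805 (0.503 to 1.33). Atp1b1 passed in 3 of the 4 alternatives that tested it, with log2 fold changes of -2.96 to -2.83 (edgeR adjusted p 2.20e-06 to 0.0014), and with no filter it gave -2.50 (adjusted p = 0.0762). Atp1b3 passed in none of the 5 that tested it (adjusted p 0.239 to 0.917).

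Among a list of other pump genes, Fxyd1 (phospholemman, a regulator of the pump) fell to 17.5 ± 17.1 CPM in progenitor and neuroblast-like cells, against 375 ± 63.9 CPM in stem cell-like cells (SD, n = 3; edgeR adjusted p = 2.59e-09), and Nkain4 (which interacts with the beta1 subunit) fell with it. Fxyd6, another regulator, rose to 532 ± 185 CPM, against 49.9 ± 62.9 CPM (SD, n = 3; log2 fold change 2.77 ± 0.572, edgeR adjusted p = 1.01e-05). Of the 20 transport genes 7 were tested and all 7 fell, beside 20.1% of all genes called lower. A gene could pass the filter on low counts through its level in stem cell-like cells alone, so this count is a description. Among the 7 were Mlc1, an astrocyte membrane protein known to bind Atp1b1, which fell by 6.15 on the log2 scale, and the potassium channel Kcnj10, which fell by 3.43. Astrocyte-like cells were also compared with progenitor and neuroblast-like cells, in all 5 experiments. Atp1b2 stood at 4242 to 6708 CPM in astrocyte-like cells, with a median of 5119 CPM, against 192, 299, 253, 404 and 496 CPM in progenitor and neuroblast-like cells of the 5 experiments (log2 fold change 4.28 ± 0.322, edgeR adjusted p = 1.18e-20). Atp1b1 rose as well, to 323 ± 143 CPM in astrocyte-like cells, against 34.4 ± 31.01 CPM (SD, n = 5; log2 fold change 3.22 ± 0.359, adjusted p = 6.86e-13). Its values in progenitor and neuroblast-like cells were 63.6, 27.4, 11.4, 69.5 and 0 CPM, all below the lowest astrocyte-like value of 126.5 CPM. Atp1b3 did not pass, with 123 ± 25.9 CPM in astrocyte-like cells and 125 ± 45.8 CPM in progenitor and neuroblast-like cells (log2 fold change 0.20 ± 0.377, adjusted p = 0.673), and its sign turned without experiment 3 (-0.27) and under a second random division of the UMIs (-0.32). So 2 of 3 members were called, where 60.5% of 1907 genes were (31.7% higher, 28.8% lower).

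In the oligodendrocyte lineage the beta subunits moved in opposite directions. Atp1b3 rose to 1772, 1519 and 1770 CPM in mature oligodendrocyte-like cells of experiments 1, 3 and 5, against 264, 118 and 334 CPM in oligodendrocyte precursor-like cells. The lowest mature value is above the highest precursor value. Its log2 fold change was 2.46 ± 0.314 (edgeR adjusted p = 5.86e-14). Atp1b2 fell to 103, 104 and 84.2 CPM in mature oligodendrocyte-like cells, against 960, 476 and 1145 CPM in oligodendrocyte precursor-like cells. All mature values lay below all precursor values, with a log2 fold change of -3.40 ± 0.415 (adjusted p = 3.68e-15). So 2 of 2 tested members were called, beside 58.7% of 985 genes (24.5% higher, 34.2% lower), and the median over all genes tested was -0.34, smaller in size than either change. Atp1b1 had 1 count in mature oligodendrocyte-like cells and 71 in oligodendrocyte precursor-like cells, did not pass the filter on low counts of the main analysis, and had a pooled ratio of 0.0314 (95% interval 0.000785 to 0.181, counting error only). It was called lower in the 4 alternatives that tested it, with edgeR adjusted p from 6.61e-09 to 0.0012. Without the 7 wells rich in haemoglobin, Atp1b2 gave -3.22 (adjusted p = 2.68e-11) and Atp1b3 2.56 (6.67e-11), and the precursor-like cells of experiment 3 stood at 492.6 CPM of Atp1b2 and 134 CPM of Atp1b3. Without experiment 3 as a whole, the values were -3.45 (5.32e-12) and 2.47 (3.42e-10).

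Nkain1, which encodes a protein that interacts with the pump's beta1 subunit, rose to 762 ± 235 CPM in mature oligodendrocyte-like cells, against 49.2 ± 19.4 CPM in oligodendrocyte precursor-like cells (SD, n = 3; log2 fold change 3.68 ± 0.440, edgeR adjusted p = 9.94e-16). Fxyd6, with 3 counts left, fell by 5.37 on the log2 scale. Among the transport genes, Slc12a2, the sodium-potassium-chloride cotransporter, rose, with 1299 ± 106 CPM in mature oligodendrocyte-like cells, against 143 ± 44.3 CPM in oligodendrocyte precursor-like cells (log2 fold change 2.62 ± 0.342, adjusted p = 2.11e-13). The glutamate transporters Slc1a2 and Slc1a3 fell by 3.02 and 2.43 on the log2 scale, and so did the caveolin gene Cav1, by 4.01.

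**Figure D3:**
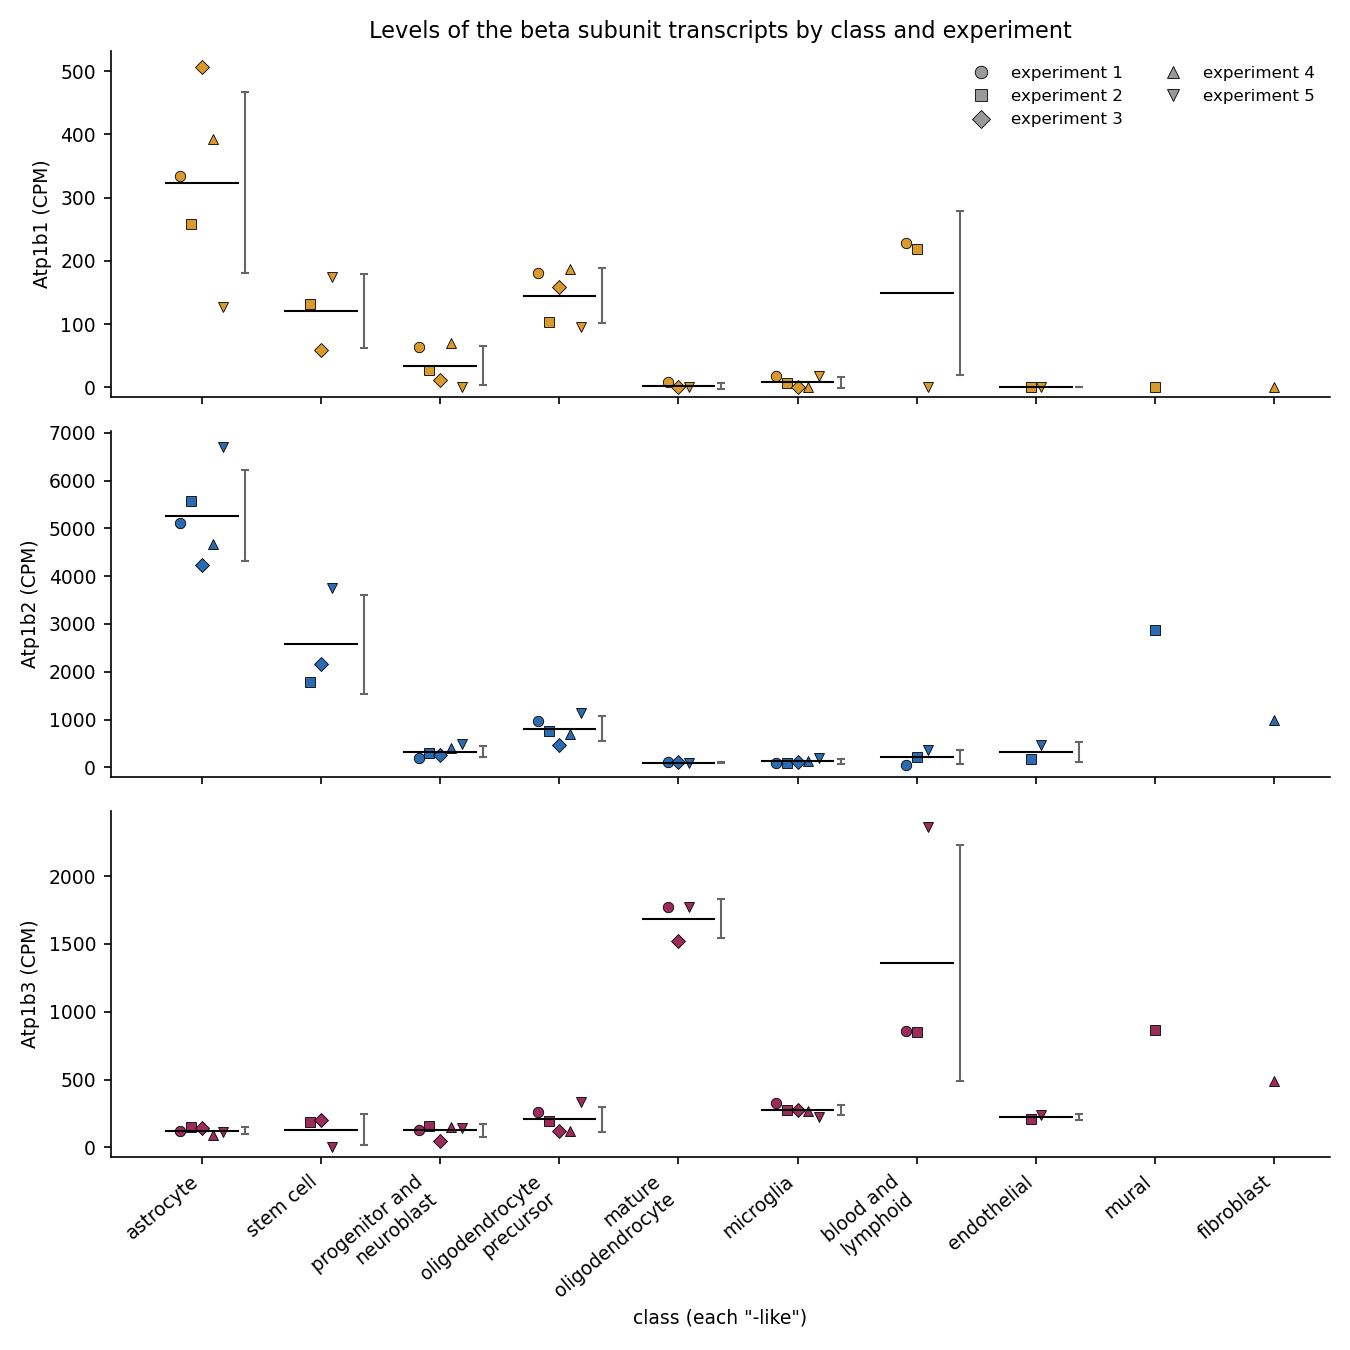
CPM (y axes, linear) of Atp1b1, Atp1b2 and Atp1b3 by class (x axis); each symbol is 1 niche experiment with at least 5 cells of the class, black lines are means and grey bars ± SD. Atp1b2 lies between 4242 and 6708 CPM in astrocyte-like cells, and Atp1b3 between 1519 and 1772 CPM in mature oligodendrocyte-like cells.

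Astrocyte-like cells were set against the other glia in all 5 experiments. Against oligodendrocyte precursor-like cells, Atp1b2 stood at 4242 to 6708 CPM in astrocyte-like cells, against 476 to 1145 CPM, with no overlap (log2 fold change 2.81 ± 0.186, edgeR adjusted p = 5.79e-13). Atp1b1 had 334, 258, 507, 393 and 126.5 CPM in astrocyte-like cells of experiments 1 to 5, against 181, 103, 158, 188 and 95.4 CPM in oligodendrocyte precursor-like cells. It was higher in astrocyte-like cells in each experiment, although the ranges overlap, and it was called (log2 fold change 1.21 ± 0.264, adjusted p = 0.000351). Atp1b3 had 118, 151, 145, 88.1 and 111 CPM in astrocyte-like cells, against 264, 193, 118, 117 and 334 CPM. It was not called (log2 fold change -0.61 ± 0.31, adjusted p = 0.110), but passed under a second random division of the UMIs (-0.97, adjusted p = 0.0105). The background of this comparison is 45.7% of 1681 genes called (22.9% higher, 22.8% lower), and 2 of 3 members were called higher. Without the 7 wells rich in haemoglobin, Atp1b2 gave 2.84 (adjusted p = 2.31e-12), Atp1b1 1.22 (0.000346) and Atp1b3 -0.61 (0.113).

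Against microglia-like cells all 3 members were called, beside 69.4% of 1642 genes (37.2% higher, 32.2% lower), and Atp1b3 went the other way from the rest. Atp1b2 averaged 5264 ± 946 CPM in astrocyte-like cells and 122 ± 43.7 CPM in microglia-like cells (SD, n = 5; log2 fold change 5.68 ± 0.412, edgeR adjusted p = 1.34e-13). Atp1b1 averaged 323 ± 143 CPM in astrocyte-like cells, against 8.25 ± 8.68 CPM in microglia-like cells, from 6 counts (log2 fold change 4.84 ± 0.48, adjusted p = 9.49e-11). Atp1b3 was lower in astrocyte-like cells, at 88.1 to 151 CPM, against 226 to 323 CPM in microglia-like cells, with no overlap (log2 fold change -0.99 ± 0.315, adjusted p = 0.0059). With oligodendrocyte precursor-like cells as the other class, Fxyd1 and Nkain4 were higher in astrocyte-like cells and Fxyd6 was lower; 11 of 12 tested transport genes were higher and none lower, beside 22.9% of all genes called higher. With microglia-like cells, 12 of 13 tested transport genes were higher, and Slc12a2 was lower; 37.2% of all genes were called higher. With progenitor and neuroblast-like cells, Fxyd1, Nkain4 and all 12 tested transport genes were higher in astrocyte-like cells, beside 31.7% of all genes called higher, and Fxyd6 and Nkain1 were lower. In each comparison a gene could pass the filter on low counts through its level in astrocyte-like cells alone, so these counts are a description. Of the 20 transport genes, Slc1a2, Slc1a3, Slc6a11, Aqp4 and Gja1 are naming markers of astrocyte-like cells, so their direction is no independent evidence.

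**Figure D4:**
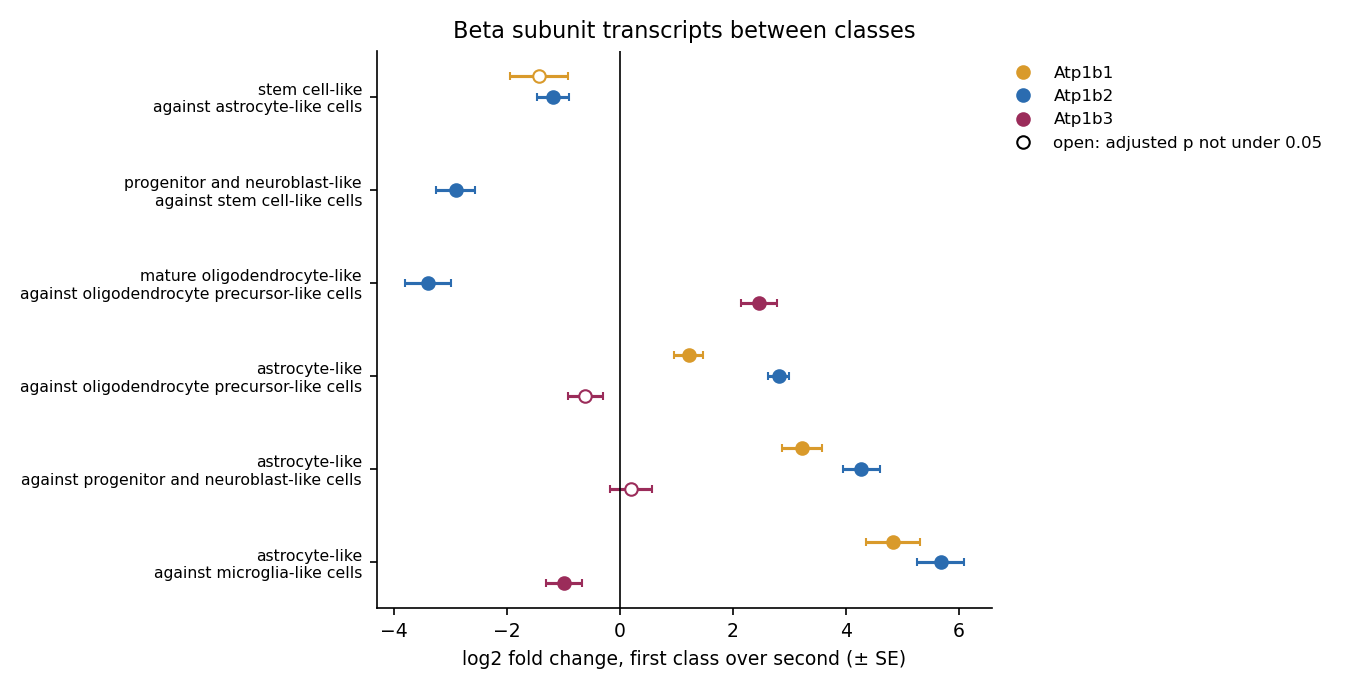
Log2 fold change of each member (x axis, first class over second, with bars of ± 1 SE) in the 6 comparisons (y axis), from edgeR with experiment as block; open symbols did not pass an adjusted p of 0.05, and members too low for the test are not drawn. Atp1b2 runs from -3.40 in mature oligodendrocyte-like against oligodendrocyte precursor-like cells to 5.68 in astrocyte-like against microglia-like cells.

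Per cell, all UMIs were used, those of the clustering included, and each cell was thinned to 1000 UMIs. Cells of all niche experiments were pooled, also where an experiment had fewer than 5 of a class. Atp1b2 had at least 1 UMI in 72.1% of the 43 stem cell-like cells (95.3% before thinning, median 5862 UMIs). The share was 96.9% of the 228 astrocyte-like ones (98.7% before thinning, median 2096 UMIs). In experiments with at least 5 cells it ran from 62.5% to 81.8% in the stem cell-like class and from 93.7% to 100% in the astrocyte-like class. In thinned oligodendrocyte precursor-like cells, the 7 wells rich in haemoglobin included, the share was 55.2% of 279 and in progenitor and neuroblast-like cells 29.004% of 231. In microglia-like cells the share was 12.2% of 287 (median depth 3068 UMIs), and in mature oligodendrocyte-like cells 11.9% of 67. By experiment the share ran from 5.97% to 44.4% in microglia-like cells and from 4.08% to 40% in mature oligodendrocyte-like cells. The part of free RNA in these shares was not tested. Atp1b3 had a UMI in 80.6% of mature oligodendrocyte-like, 65.9% of 41 blood and lymphoid-like, 22.6% of microglia-like, 22.2% of oligodendrocyte precursor-like and 8.77% of astrocyte-like cells, and Atp1b1 in 20.6% of astrocyte-like and 13.98% of oligodendrocyte precursor-like cells. Of the 67 mature oligodendrocyte-like cells, 0 had an Atp1b1 UMI after thinning, which allows up to 4.48% of cells with a UMI at 1000 UMIs per cell and limits no share of cells that express the gene; 4.48% had one before. At this depth most cells showed a single member or none: of 228 astrocyte-like cells, 159 had a UMI of 1 member, 63 of 2, 1 of all 3 and 5 of none.

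The counts of Atp1b2 were also set against those of the astrocyte markers in each class, as a description. The part of free RNA in these ratios was not tested. Per 1000 counts of the 12 astrocyte markers there were 143 counts of Atp1b2 in astrocyte-like cells (95% interval 136 to 149, counting error only) and 82.4 (72.7 to 93.1) in stem cell-like cells. Microglia-like cells had 97.3 (72.4 to 129), below the astrocyte-like ratio. Oligodendrocyte precursor-like cells had 352 (323 to 383) and progenitor and neuroblast-like cells 235 (210 to 263), above it, and mature oligodendrocyte-like cells had 202 (117 to 333), an interval that holds it. The Atp1b3 of microglia-like cells stood at 718 counts (580 to 886) per 1000 counts of mature oligodendrocyte markers, against 17.1 (15.2 to 19.1) in mature oligodendrocyte-like cells.

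The order of the levels was as follows for classes with at least 2 experiments. For Atp1b2 it ran from astrocyte-like through stem cell-like to oligodendrocyte precursor-like cells with no overlap between neighbours, and from there down to mature oligodendrocyte-like cells (96.99 ± 11.1 CPM, n = 3) each class overlapped the next. For Atp1b3 it began with mature oligodendrocyte-like (1687 ± 145 CPM) and blood and lymphoid-like cells (859, 849 and 2364 CPM), which overlapped each other and lay apart from the rest. Below them came microglia-like cells at 274 ± 34.7 CPM and then, down to astrocyte-like cells, classes that each overlapped the next. The microglia-like range of 226 to 323 CPM did not overlap those of progenitor and neuroblast-like cells (45.6 to 160 CPM) or of astrocyte-like cells (88.1 to 151 CPM). For Atp1b1 all neighbours in the order overlapped, from astrocyte-like cells to endothelial-like cells, where it had 0 counts. Classes seen in 1 experiment gave further values from few cells. The 5 mural-like cells of experiment 2 had 30 counts of Atp1b2 (2877 CPM, exact Poisson 95% interval 1938 to 4100, counting error only), 9 of Atp1b3 and 0 of Atp1b1, and Atp1b2 stood at 1364 counts (761 to 2481) per 1000 astrocyte marker counts, of which 3 of 12 markers had any. The 12 fibroblast-like cells of experiment 4 had 54 counts of Atp1b2 (984 CPM) and 26 of Atp1b3 (486 CPM), with 10 of 12 astrocyte markers present at 2940 CPM in sum.

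The old library and the Nestin-GFP library have no replicates, so their values are given with exact Poisson 95% intervals for counting error and no test. Atp1b2 stood at 2992 CPM (1913 to 4443) in the 8 astrocyte-like cells of the old library and at 4347 CPM (4078 to 4629) in the 84 of the Nestin-GFP library, against 4242 to 6708 CPM in the niche experiments. Atp1b3 was low in mature oligodendrocyte-like cells of the Nestin-GFP library, at 898 CPM (800 to 1003; 92 cells), against 1519 to 1772 CPM in the niche experiments, and the old library had 1481 CPM (990 to 2124). Most Nestin-GFP mature oligodendrocyte-like cells fell into another cluster than the niche cells did: of the 82 cells of that cluster, 2 were niche cells. The Nestin-GFP cells of this class held mature oligodendrocyte markers at 68013 CPM in sum, against 83619 to 104656 CPM in the niche experiments. Their astrocyte markers summed to 1467 CPM, against 457 to 590 CPM. Their Atp1b2 stood at 168 CPM (128 to 218), against 84.2 to 104 CPM. The part of these differences in the Atp1b3 level was not tested. In progenitor and neuroblast-like cells of the Nestin-GFP library Atp1b3 was at 269 CPM (191 to 368), against 45.6 to 160 CPM in the niche experiments. Those Nestin-GFP cells also held mature oligodendrocyte markers at 2735 CPM in sum (10 of 10 with counts), against 102 to 445 CPM in the niche experiments, and their part in the Atp1b3 level was not tested. In the 49 microglia-like cells of the old library it was at 127 CPM (70.95 to 209), against 226 to 323 CPM. Library, sort and mouse cannot be told apart in these values.

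**Figure D5:**
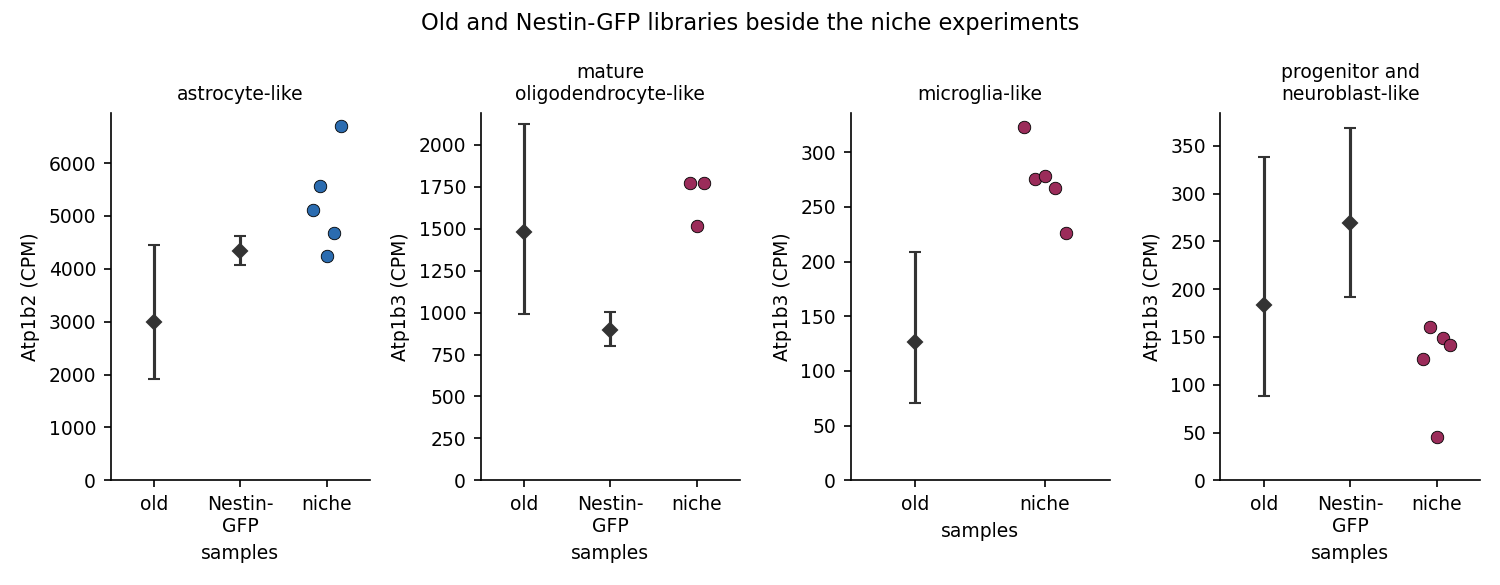
CPM (y axes) of Atp1b2 in astrocyte-like cells and of Atp1b3 in 3 classes, in the old library, the Nestin-GFP library and the niche experiments (x axes); diamonds carry exact Poisson 95% intervals and circles are single experiments. Atp1b3 in mature oligodendrocyte-like cells is at 898 CPM in the Nestin-GFP library and between 1519 and 1772 CPM in the niche.

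The genes most alike to each member were ranked by Pearson's r of log2(CPM + 10) over 33 sums by class and experiment from 10 classes, among 4990 genes with a mean of at least 50 CPM. This is a description, because sums of 1 class share a cell type and sums of 1 experiment come from the same libraries. For Atp1b2 they were Farp1 (r = 0.89), Fgfr3, Ntrk2, Mfge8 and Sparcl1 (r = 0.87), of which Fgfr3 and Mfge8 are naming markers. For Atp1b1 they were Nkain4 (r = 0.82), Pmm1, Nrcam, Cspg5 and Acss1 (r = 0.80). For Atp1b3 they were Capzb (r = 0.72), Dock10, Erbb2ip, Pdlim2 and Rhog (r = 0.66). Among the members, Atp1b1 and Atp1b2 had r = 0.57, and Atp1b3 had r = -0.45 with Atp1b1 and r = -0.49 with Atp1b2.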

How the data were processed

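Per the submitters' processing notes, BWA 0.6.2-r126 and the build mm10 were used; no counting tool, annotation or strand setting is stated. The authors deposited estimated counts per gene and well, in which UMI numbers had been corrected for saturation. Undoing that correction returned whole UMIs (within 0.05) for at least 99.332% of values in every library, with UMI pools of 256 or 4096. Spike-ins and mitochondrial genes were removed, wells with at least 1000 transcripts were taken as cells, and no doublet caller was run.

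Each cell's UMIs were split at random in 2 sets. The first, without 19 pump genes, was clustered (scanpy 1.11.5, 2000 variable genes, 30 components, 15 neighbours, Leiden). A second round parted stem cell-like from astrocyte-like cells. Names came from 15 marker lists, with thresholds set after marker scores had been seen. The members and lists were chosen with earlier results of these data known. The genes named are the members, genes of both lists that passed (some are not reported here), and the 5 most alike genes of each member; the untested oddities named were chosen after their values were seen.

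The second set, summed by experiment and class and rounded, was tested with edgeR 4.0.16 (TMM, filterByExpr, quasi-likelihood F test, Benjamini-Hochberg over all genes tested). Experiment was the replicate block because both classes of a comparison came from libraries with the same experiment number in the labels. Genes called had an adjusted p under 0.05. The code was tested on simulated data. DESeq2 1.42.0 and other filters, scalings and cell selections were alternatives.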

Additional observations from a re-analysis of the deposited data

How the results depend on the processing

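Of the member fold changes, 52 values without an experiment and 149 values under the other alternatives kept direction and, where they were tested, call; the exceptions follow. Leaving out 7 wells rich in haemoglobin, an alternative chosen after seeing the data, changed no call of a member. For Atp1b2 in stem cell-like against astrocyte-like cells, leaving out an experiment gave -1.38 to -0.98 (edgeR adjusted p 0.0415 to 0.192), and the fit with no replicate block gave -1.17 (adjusted p = 0.0942). Atp1b1 in that comparison passed at -1.28 with cells of at least 2000 transcripts and at -1.43 with a minimum of 3 cells. Without cells holding markers of a second class, which left out 44.1% of cells, 1 experiment remained, with no test, at -1.62 for Atp1b2 there, -2.56 for Atp1b2 in progenitor and neuroblast-like against stem cell-like cells, and -3.33 for Atp1b2 and 3.24 for Atp1b3 in mature oligodendrocyte-like against oligodendrocyte precursor-like cells. Under the second random division Atp1b3 passed at -0.97 in astrocyte-like against oligodendrocyte precursor-like cells and reversed to -0.32 against progenitor and neuroblast-like cells, where leaving out an experiment gave -0.27 to 0.39. The causes were not tested.

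Genes called moved more. In stem cell-like against astrocyte-like cells (136) they were 58 with DESeq2, 14 with no replicate block, 248 with both sets of UMIs, 74 under the second division and 23 to 45 without an experiment. In progenitor and neuroblast-like against stem cell-like cells (40.3% of genes in the main analysis) they were 329 with DESeq2, 348 with no replicate block, 952 with both sets, 306 at 2000 transcripts, 302 with a minimum of 3 cells and 236 to 773 without an experiment; the share of calls that were higher was 35.3% with DESeq2, 37.7% with no filter and 38.6% at 2000 transcripts, against 50% in the main analysis. In stem cell-like against astrocyte-like cells that share was 8.08% with no filter, 7.14% with no block, 20.3% under the second division and 12.5% without experiment 3, against 34.6%. In mature oligodendrocyte-like against oligodendrocyte precursor-like cells (578) they were 1028 with no filter, 1086 with both sets, 904 at 2000 transcripts and 420 to 938 without an experiment. For astrocyte-like cells against oligodendrocyte precursor-like (768), progenitor and neuroblast-like (1154) and microglia-like cells (1140), no filter gave 1734, 2319 and 2900, both sets 1461, 2159 and 2124, and leaving out cells with second-class markers 418, 499 and 446; at 2000 transcripts the second of these gave 762. RLE scaling moved the median of all genes by over 0.1 in 2 comparisons, to 0.0056 in progenitor and neuroblast-like against stem cell-like cells and to 0.24 in astrocyte-like against progenitor and neuroblast-like cells.

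Differences in share reversed for Atp1b1 in stem cell-like against astrocyte-like cells (1.79 points under the second division, 0.79 with both sets, -3.01 to 2.27 without an experiment) and in astrocyte-like against progenitor and neuroblast-like cells (0.52 under the second division, -3.42 to 0.90 without an experiment). Without an experiment the Atp1b2 share in stem cell-like against astrocyte-like cells ran from -4.62 to 0.74 points, and the Atp1b1 share in progenitor and neuroblast-like against stem cell-like cells from -2.51 to 0.34. Low counts limit Atp1b1 and Atp1b3, which were too low to test in 2 comparisons each in the main analysis.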

Other observations

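Levels of regulators of the pump by class are given as a description without a test. Fxyd5 (dysadherin, a regulator that is also linked to cell adhesion) stood at 677 ± 240 CPM in blood and lymphoid-like cells (SD, n = 3), from 47 counts, beside 1.76 ± 3.93 CPM in astrocyte-like cells (n = 5), from 1 count. Fxyd1 stood at 375 ± 63.9 CPM in the stem cell-like class (n = 3), against 515 ± 92.2 CPM in the astrocyte-like class (n = 5). The ranges overlapped, at 308 to 435 CPM and 398 to 639 CPM. Fxyd6 stood at 537 ± 108 CPM in oligodendrocyte precursor-like and 536 ± 148 CPM in progenitor and neuroblast-like cells (n = 5 each).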
